A study of Mus musculus with 2 samples.

Results

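Tbx2, Tbx3, Tbx4, Tbx5, Tbx15, Tbx18 and Tbx20 encode T-box transcription factors known from the outflow tract, the valves and the mesenchyme around them. These 7 genes were chosen by name from the 19938 genes measured, and each was represented by the only transcript cluster, a set of probes along a transcript, that the array annotation assigns to that gene alone. Signals were compared between Adam19-/- and Adam19+/+ cardiac neural crest cells of C57BL/6 mouse embryos at the embryonic stage E14.5. Both groups also carried the Wnt1-Cre driver, which acts in the neural crest, and a single R26tdTomato reporter allele, and tdTomato-positive cells were sorted from collagenase-digested hearts. Adam19, a membrane-anchored metalloprotease, was disrupted by an allele that the genotype does not tie to Cre, and neither the part of the gene removed nor the number of embryos per sample is stated in the labels. Each genotype had 1 array (n = 1), so no difference below has a replicate check and none has a p-value.

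T-box factors bind DNA through a shared domain, the T-box, and either activate or repress their targets. In the heart, Tbx2 and Tbx3 act mainly as repressors that keep the atrioventricular canal and outflow tract from taking on the programme of the chambers, whereas Tbx5 activates chamber genes with Nkx2-5 and Gata4. Tbx20 is needed for chamber growth and for valve formation, Tbx18 marks the epicardium and the venous pole, and Tbx15 is best known from skeletal and skin mesenchyme. Tbx4 is known from the hindlimb and the lung. Tbx2 lies beside Tbx4 and Tbx3 beside Tbx5, pairs that descend from a duplicated ancestral pair.

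The promoters of Tbx20, Tbx18 and Tbx4 are shown because they are the ones of the 7 genes with an entry in the RefSeq promoter table (build GRCm38.p6), and they belong to a pair of genes with higher signal in Adam19-/- cells and to one with almost equal signals. Each runs from 250 bases before to 50 bases after the gene's start, 5′ to 3′ on the strand of the gene. Capitals mark matches, on either strand, to the motifs searched, which were the T-box element AGGTGTGA and the core GGTGTGA within it, the GATA site AGATAAG, the SMAD palindromes GGCGCC and GTCTAGAC, and the NK2 site AAGTG. Tbx20 lies on the minus strand at chr9:24774254-24774553, Tbx18 on the minus strand at chr9:87731211-87731510 and Tbx4 on the plus strand at chr11:85896515-85896814.
Tbx20: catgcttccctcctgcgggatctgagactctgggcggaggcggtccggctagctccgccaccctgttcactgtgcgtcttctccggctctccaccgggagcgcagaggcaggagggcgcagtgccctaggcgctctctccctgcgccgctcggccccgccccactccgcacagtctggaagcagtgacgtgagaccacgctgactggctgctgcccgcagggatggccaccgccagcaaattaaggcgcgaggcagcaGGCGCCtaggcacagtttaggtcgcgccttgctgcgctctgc
Tbx18: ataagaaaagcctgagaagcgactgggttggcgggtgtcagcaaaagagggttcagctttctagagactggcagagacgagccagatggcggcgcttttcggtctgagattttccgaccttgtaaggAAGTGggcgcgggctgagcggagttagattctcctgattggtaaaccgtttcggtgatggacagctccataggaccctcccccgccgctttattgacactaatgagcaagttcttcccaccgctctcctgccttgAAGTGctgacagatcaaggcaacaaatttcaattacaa
Tbx4: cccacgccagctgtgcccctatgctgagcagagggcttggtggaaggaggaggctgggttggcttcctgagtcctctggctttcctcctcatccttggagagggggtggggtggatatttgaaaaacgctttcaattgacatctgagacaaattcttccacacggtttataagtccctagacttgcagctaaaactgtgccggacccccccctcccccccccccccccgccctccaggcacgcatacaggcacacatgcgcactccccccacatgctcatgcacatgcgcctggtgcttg
The Tbx20 promoter held 1 match to GGCGCC, which 11.9% of all 32851 promoters of the same length also hold. The Tbx18 promoter held 2 matches to AAGTG, a motif present in 46.4% of promoters. The Tbx4 promoter held no match. The T-box element, found in 1.28% of promoters, and its core, found in 3.98%, were in none of these 3 windows, and neither was AGATAAG (3.04%) nor GTCTAGAC (0.213%). The share of G and C was 68.3% in the Tbx20 promoter, 51.7% in that of Tbx18 and 59.0% in that of Tbx4, against a median of 52.7% over all promoters. CG dinucleotides numbered 26, 15 and 8 in these promoters in the same order, with a median of 7 over all.

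The deposited values are log2 signals, and the level called the floor here, 8.01, is the middle value of all genes' mean signal, which 10122 genes passed on at least 1 array. It is not a limit of detection. Adam19 itself gave 9.77 with Adam19-/- RNA, against 11.62 with Adam19+/+ RNA, and so differed by -1.85 in the direction of the labels. Over the genes above the floor the median difference, Adam19-/- minus Adam19+/+, was 0.040, the central 95% ran from -0.20 to 0.30, and 65.2% of genes were higher and 33.7% lower. After centring of each array on its median these shares were 53.5% and 46.5%. For the 583 genes with at least 2 clusters above the floor, the differences of the brightest 2 clusters lay a median of 0.055 apart, with a 95th percentile of 0.24. Each of the 7 T-box genes had 1 cluster, so no such gap could be read for them. Y-linked transcripts stood apart between the samples, with Eif2s3y, Uty and Kdm5d all over 2-fold lower on the Adam19-/- array, while Xist was at 11.14 in Adam19-/- cells, against 11.25 in Adam19+/+ cells. With 1 array per genotype, a difference in the sex of the embryos cannot be told apart from one of genotype. Of 20 marker genes of outflow and valve mesenchyme, 19 were above the floor, against 50.8% of all genes, and so were 12 of 12 smooth muscle and 10 of 10 autonomic neuron markers. The same held for 12 of 15 cardiomyocyte, 7 of 10 endothelial, 7 of 8 Schwann cell, 11 of 16 cartilage and 5 of 7 melanocyte markers. Fewer passed among epicardial (4 of 11), leukocyte (4 of 14) and erythroid (2 of 5) markers. Signals of different genes come from different probes, so the genes are not ordered by abundance.

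Of the 7 T-box genes, 6 were higher in Adam19-/- cells and 1, Tbx15, was lower, against 51.7% and 34.1% of all 19938 genes, where Tbx3 counts as higher by a difference of 0.023 that turns to -0.0074 when the arrays are centred on their medians. The median difference of the 7 was 0.21, or 1.16-fold, against 0.0061 for all genes. Tbx2, Tbx3, Tbx15, Tbx18 and Tbx20 passed the floor, and the median of these 5 was also 0.21, against 0.040 for all genes above it. Of the 5, 4 were higher and 1 lower, where 65.2% and 33.7% of genes above the floor were. After centring on array medians 3 were higher, against 53.5%. The members ranged from -0.42 (Tbx15) to 0.48 (Tbx5). No member differed by 1.5-fold, a size reached by 0.148% of genes above the floor in the higher and 0.0889% in the lower direction. At 1.2-fold, or 0.26 on the log2 scale, 0 of the 5 were higher, against 4.06% of genes above the floor, and 1 was lower (Tbx15), against 1.13%. Tbx15 passed the floor only through the Adam19+/+ array, where it was high, so nothing is read from the counts over these 5. Without a floor Tbx5 also passed 1.2-fold, as did 6.1% of the genes under the floor in that direction and 2.94% in the lower one.

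**Figure D1:**
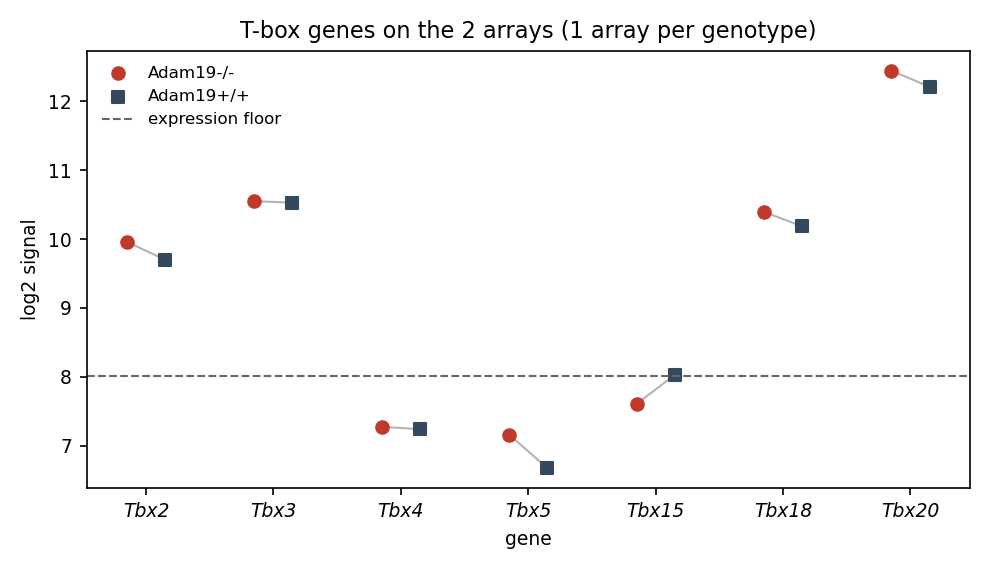
Log2 signal of each T-box gene on the Adam19-/- array (circles, left of each pair) and the Adam19+/+ array (squares, right), 1 array per genotype, with the expression floor of 8.01 as a dashed line. Tbx4 and Tbx5 lie under the floor on both arrays, and Tbx15 lies above it on the Adam19+/+ array alone.

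Tbx20, required in endocardial and myocardial development and in valve remodelling, had a log2 signal of 12.45 in Adam19-/- cells, against 12.21 in Adam19+/+ cells. On the linear scale these are signals of 5587 and 4743. The difference of 0.24, or 1.18-fold, lay above the central 95% of the 550 genes whose mean signal was within 0.5 of that of Tbx20, which ran from -0.17 to 0.20. Of those genes, 1.64% had a difference at least as high. Bright genes varied less between the arrays than genes near the floor.

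Tbx2, the repressor of chamber genes that responds to bone morphogenetic protein (BMP) in the atrioventricular canal, was at 9.96 in Adam19-/- cells, against 9.70 in Adam19+/+ cells. Its difference of 0.26, or 1.198-fold, was just short of the 1.2-fold threshold of 0.263. It stood within the central 95% of the 3009 genes of similar signal, from -0.19 to 0.29, and 3.49% of them were at least as far up. Tbx18, a repressor expressed in the epicardium and in mural cells, was at 10.40 in Adam19-/- cells, against 10.19 in Adam19+/+ cells. Its difference of 0.21, or 1.16-fold, was also within the range of the 2711 genes of similar signal, from -0.16 to 0.27, of which 5.39% were at least as far up. The differences of Tbx2, Tbx18 and Tbx20 were near the 95th percentile, 0.24, of the gap between clusters of a gene.

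Tbx3, the close paralogue of Tbx2 and a regulator of the conduction system, gave 10.55 in Adam19-/- cells, against 10.53 in Adam19+/+ cells. The difference of 0.023 was smaller than the median gap of 0.055 between clusters of a gene and below the median difference of all genes above the floor. The contrast between the 2 paralogues, 0.26 for Tbx2 and 0.023 for Tbx3, has no test with 1 array per genotype. In the gene table Tbx3os1, an antisense transcript, overlaps the start of Tbx3, and whether it adds to the signal of the Tbx3 cluster was not tested.

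Tbx15 was the only member that was lower in Adam19-/- cells. It was at 7.61 in Adam19-/- cells, against 8.03 in Adam19+/+ cells, a log2 difference of -0.42, or 1.34-fold lower. Among the 2279 genes of similar signal the central 95% ran from -0.24 to 0.39, and 0.395% had a difference as low. The Adam19+/+ value exceeded the floor by 0.022 and the Adam19-/- value was under it by 0.40, so Tbx15 stands just inside the genes counted as above the floor. Tbx18 belongs to the same subfamily, and the 2 genes differed in opposite directions.

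Tbx5 had the largest difference of the members, 0.48 or 1.40-fold, at 7.16 in Adam19-/- cells, against 6.68 in Adam19+/+ cells. Both values were under the floor. Among the 2324 genes of similar signal the central 95% ran from -0.31 to 0.37, and 0.645% were at least as far up. Adding 32 to the linear signals, which shrinks differences of dim genes, gave 0.38. Tbx4 was at 7.27 in Adam19-/- cells, against 7.24 in Adam19+/+ cells, also under the floor, and its difference of 0.035 was less than the median gap between clusters. Which cells in the sorted sample gave the signal of each T-box gene was not tested.

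**Figure D2:**
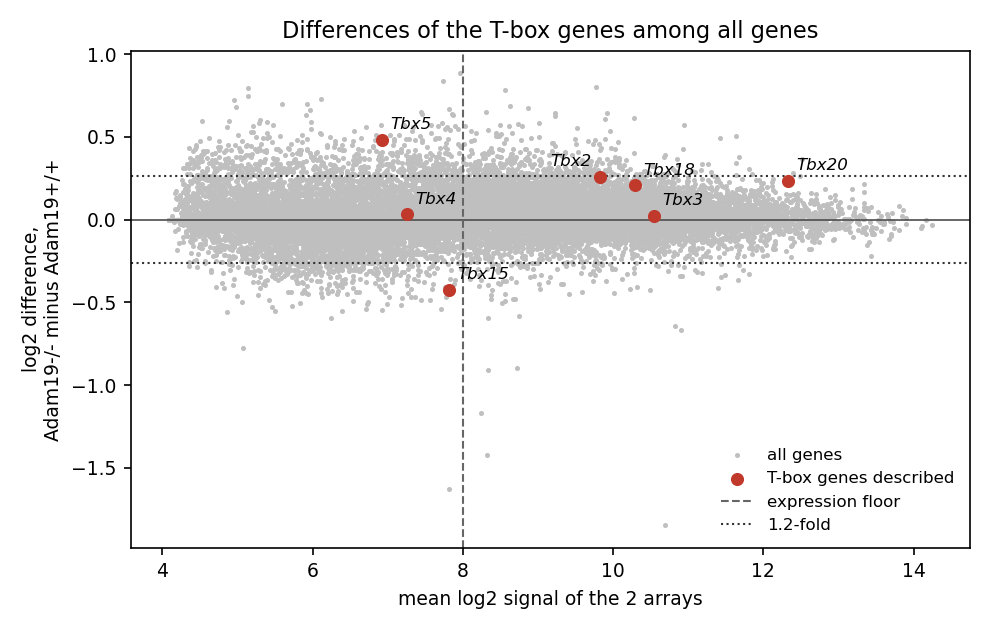
Log2 difference, Adam19-/- minus Adam19+/+, against the mean log2 signal of the 2 arrays for all genes (grey) and the T-box genes (red), with the expression floor (dashed) and 1.2-fold (dotted). Tbx5 and Tbx15 lie outside the dotted lines, and Tbx15 passes the floor by its Adam19+/+ value, although its mean is under it.

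For every member but Tbx5, scaling the arrays moved the difference by less than 0.055, the median gap between clusters of a gene. That of Tbx5 moved by more, from 0.48 to 0.38 with the offset of 32. Over quantile normalisation, centring on array medians, centring on a smooth curve against signal, and the offset of 32, Tbx2 stayed between 0.22 and 0.26, Tbx18 between 0.18 and 0.21 and Tbx20 between 0.21 and 0.24. Tbx15 ranged from -0.45 to -0.37 and Tbx5 from 0.38 to 0.50. Tbx4 ran from 0.0044 to 0.035, and Tbx3 from -0.0074 to 0.023, which is a change of sign at a size under the gap between clusters.

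**Figure D3:**
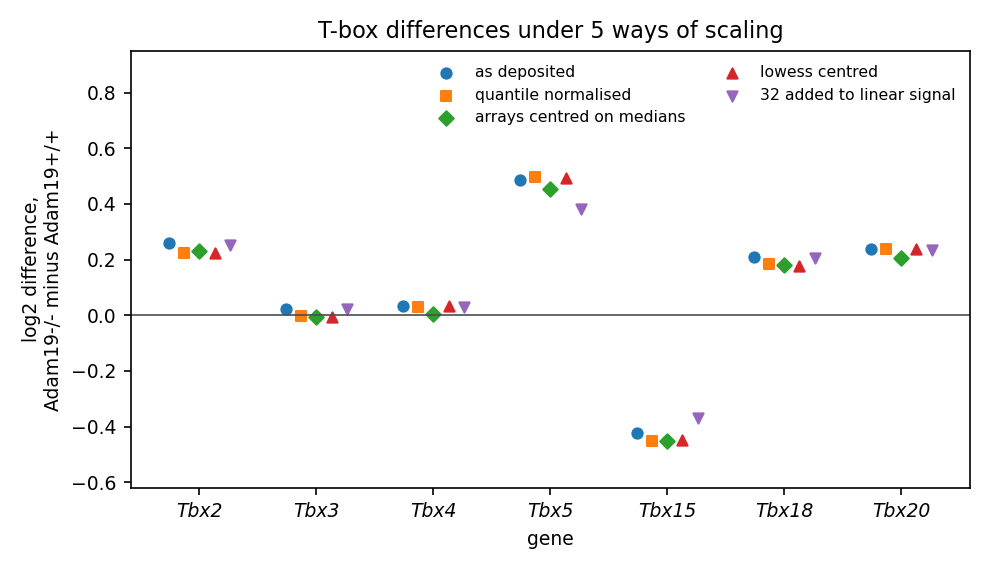
Log2 difference, Adam19-/- minus Adam19+/+, of each T-box gene for the values as deposited and under 4 other scalings. Tbx15 is below 0 in all 5, Tbx2, Tbx5, Tbx18 and Tbx20 are above 0 in all 5, and Tbx3 lies within 0.03 of 0.

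Genes next to the T-box loci were read from the order of measured genes in the gene table. Beside Tbx2, Bcas3 was higher by 0.14 and Tbx4 by 0.035, and beyond Tbx4, Brip1 was higher by 0.055. Beside Tbx3, Med13l differed by 0.0051, and beyond Tbx5, Rbm19 was higher by 0.055. Within the linked pairs the differences were 0.26 for Tbx2 and 0.035 for Tbx4, and 0.48 for Tbx5 and 0.023 for Tbx3, with no test between them. The neighbours of Tbx15 were Wars2 at 0.090 and Spag17, which had exactly equal values, and those of Tbx20 were Herpud2 at -0.054 and Cypt4, also equal. Next to Tbx18, Nt5e, which encodes the ectonucleotidase CD73 that makes adenosine, was at 8.78 in Adam19-/- cells, against 8.20 in Adam19+/+ cells, and differed by 0.57 or 1.49-fold, larger than that of Tbx18, while Cep162 on its other side was lower by 0.11. Tbx2 and Tbx4 share chromosome 11 with Adam19, with 681 measured genes between Adam19 and Tbx2, and the 329 of those above the floor had a median difference of 0.040, the same to this precision as that of all genes above the floor.

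Of 8 other T-box genes measured, 1 was higher, 4 were lower and 3 were equal, and 2 passed the floor. Among all genes 51.7% were higher and 34.1% lower, and 50.8% passed the floor. Most of the 8 lay under the floor, where 3700 of 9816 genes were higher, 3397 lower and 2719 equal. Their split was not tested against that of the T-box genes described above, most of which passed the floor, so no contrast is read from it. Tbx1, a regulator of pharyngeal and outflow development, was at 8.78 in Adam19-/- cells, against 8.60 in Adam19+/+ cells, and so differed by 0.18. Mga, a large T-box protein that also binds MAX, was at 10.37 in Adam19-/- cells, against 10.40 in Adam19+/+ cells, and so differed by -0.035. Under the floor, Tbx21 differed by -0.15, Tbx19 by -0.084 and Tbx6 by -0.0022. Tbr1, Eomes and Tbx22 had exactly equal values on both arrays, as did 27.7% of all genes under the floor and 1.07% of those above it. The origin of these ties was not tested.

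Cardiac transcription factors known to act with T-box proteins were higher in a share near that of all genes. Of 10 that passed the floor, 7 were up, 2 down and 1 equal, where 65.2% of all genes above the floor were up and 33.7% down, and the median difference was 0.12, against 0.040 for the genes above the floor. Hand1, a factor of the outflow tract and ventricles, was at 9.53 in Adam19-/- cells, against 8.91 in Adam19+/+ cells, and differed by 0.63 or 1.54-fold. Hand1 lies on chromosome 11, as Adam19 does. The GATA factors Gata5 and Gata4 were higher by 0.41 and 0.36, and Msx2, a homeobox target of BMP, by 0.27. Nkx2-5, the main DNA-binding partner of Tbx5 and Tbx20, had exactly equal values, 8.17. Hand1, Gata5, Gata4 and Msx2 passed 1.2-fold, 4 of 10 against 4.06% of genes above the floor in the higher direction, and the list was chosen with earlier results of these data known. Msx2 passed the floor only through the Adam19-/- array, at 8.21 against 7.94, so nothing is read from this count.

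Genes of the BMP pathway, which acts upstream of Tbx2 and Tbx3, had a median of 0.032, close to the 0.040 of all genes above the floor. The list spans ligand, receptor, Smad and Id genes and is not one of inputs alone. Of 18 that passed it, 12 were higher and 6 lower, a split near the 65.2% and 33.7% of all such genes. At 1.2-fold 5 were higher and 0 lower, against 4.06% and 1.13% of them. Bmpr1b, among the 5, passed the floor only through the Adam19-/- array, at 8.02 against 7.72, so nothing is read from this count. The ligand genes Bmp2 and Bmp6 were higher by 0.34 and 0.32, the receptor gene Bmpr1b by 0.30 and the transducer Smad9 by 0.38. Bmp2, which induces Tbx2 in the atrioventricular canal, was at 9.31 in Adam19-/- cells, against 8.97 in Adam19+/+ cells.

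Genes downstream of T-box factors differed in both directions. Among cushion and proliferation genes 7 passed the floor, 5 of them higher and 2 lower, a split near that of all genes above the floor. Their median difference was 0.10, and it was 0.052 over all 10 measured. Has2, the hyaluronan synthase of the cushions, which Tbx2 activates in the mouse, was at 10.22 in Adam19-/- cells, against 9.69 in Adam19+/+ cells, and so differed by 0.53. Mycn, a proliferation gene linked to Tbx2 and Tbx20, was higher by 0.48, Lef1 by 0.19, and Ptgds was lower, at -0.18. Of 8 measured chamber and ion channel genes, a list that includes targets repressed by Tbx2 or Tbx3, 7 were higher and 1 lower, against 51.7% and 34.1% of all genes, and 6 were under the floor. Only Gja1 at 0.27 and Cited1, close to 0, passed the floor. Kcnj2 was higher by 0.44, Smpx by 0.42 and Nppb by 0.39, all under the floor. Among targets of Tbx4 and Tbx5 from limb and lung, Fgf10 was lower, at 9.59 in Adam19-/- cells, against 9.93 in Adam19+/+ cells, and so differed by -0.34, whereas Wnt2b was higher by 0.23 and Bambi by 0.14. Shh, under the floor, differed by -0.22. The 7 corepressor genes above the floor, partners of T-box repressors, differed by a median of 0.055. Of them 5 were higher and 2 lower, near the 65.2% and 33.7% of all genes above the floor. None differed by 1.2-fold, a size reached by 4.06% of those genes upward and 1.13% downward, so nothing is read from this. Hdac3 was at 0.13, Tle3 at -0.097, Tle1 at 0.095 and Hdac1 at 0.065.

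**Figure D4:**
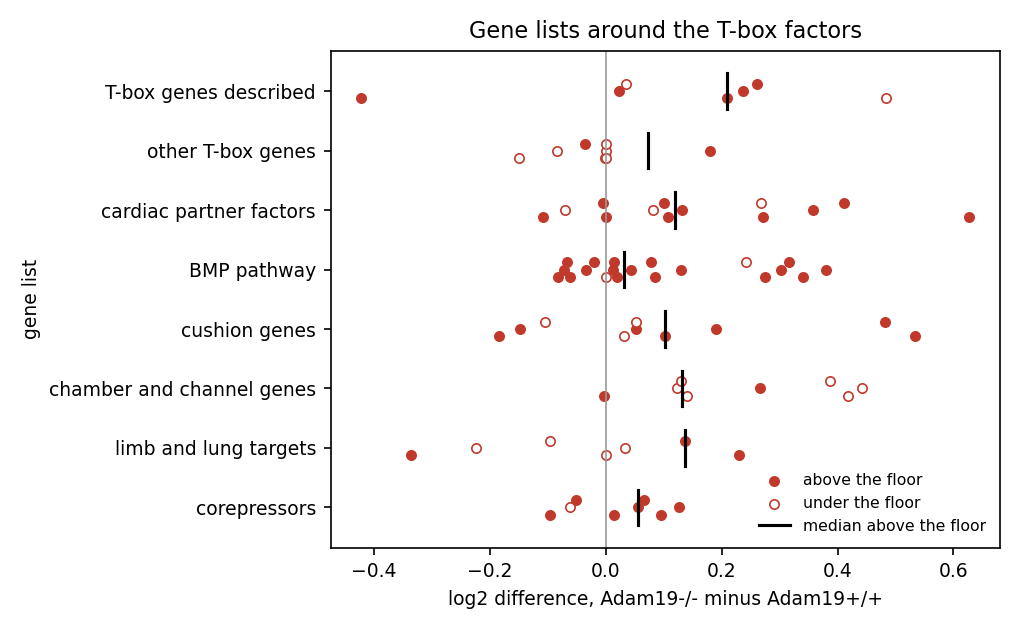
Log2 difference, Adam19-/- minus Adam19+/+, of each measured gene in the T-box group and the lists around it (filled: above the floor on at least 1 array, open: under it), with the median of the genes above the floor as a bar. The bar is at 0.21 for the T-box genes described and between 0.03 and 0.14 for the other lists drawn. It rests on 2 genes for the chamber list and for the other T-box genes, and on 3 for the limb and lung list. Over all 8 chamber genes measured the median was 0.20. Of lists not drawn, the 20 mesenchymal markers had a median of 0.20 and the 15 cardiomyocyte markers 0.17. No list was tested against another.

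Markers of cells in which T-box genes are also active are given beside the share of all genes above the floor, 65.2% higher and 33.7% lower. Of the markers below, Myh6 and the mesenchymal Msx2 passed the floor only through the Adam19-/- array. The epicardial Krt8 and the endothelial Emcn passed it only through the Adam19+/+ array. Each was high on the array that let it pass, so nothing is read from the above-floor counts and medians of their lists. Cardiomyocytes express Tbx5 and Tbx20, and 12 of their markers passed the floor, 9 of them higher and 3 lower, with a median of 0.19. All 15 measured split into 12 higher and 3 lower, with a median of 0.17, against 51.7% and 34.1% of all genes. The linear signal summed over all 15 was 9572 in Adam19-/- cells, against 8752 in Adam19+/+ cells. Myl7, the atrial myosin light chain, differed by 0.78, Pln by 0.54, Myh6 by 0.39 and Ttn by 0.35. Endothelial and endocardial markers had a median of 0.11 over 7 above the floor, 4 higher and 3 lower, led by the endocardial factor Nfatc1 at 0.49, and all 10 summed to 5232 in Adam19-/- cells, against 5114 in Adam19+/+ cells. Pecam1 and Cdh5, under the floor, were higher by 0.27 and 0.26, and Egfl7 by 0.23. Epicardial markers, of which Tbx18 is a known companion, gave 1 higher and 3 lower of 4 above the floor, with a median of -0.077, whereas all 11 measured split into 5 higher, 4 lower and 2 equal (median 0). Their summed signal was 3058 in Adam19-/- cells, against 3098 in Adam19+/+ cells. Lrrn4 was at 0.42 and Upk1b at -0.22 under the floor, Krt18 at -0.23, Aldh1a2 at 0.20, and the defining epicardial factor Wt1 had exactly equal values under the floor. Mesenchymal markers were higher in 15 and lower in 4 of 19, with a median of 0.17 and a sum over all 20 of 62829 in Adam19-/- cells, against 59553 in Adam19+/+ cells. Sox9 was at 0.57, Tcf21 at 0.57, Scx at 0.42 and Twist1 at 0.40. All 12 smooth muscle markers were lower, with a median of -0.12. The part of each cell type in the T-box differences was not tested, and in a bulk sample fewer cells of a type and less RNA per cell cannot be told apart.

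Over the remaining marker lists, leukocyte markers were higher in 14 of 14 measured, where 51.7% of all genes were higher. Their median was 0.35, and it was 0.61 over the 4 above the floor. C1qb and Fcer1g passed the floor only through the Adam19-/- array, where they were high, so nothing is read from the 0.61. The autonomic neuron markers had a median of 0.14 over 10. Schwann cell markers had a median of -0.14 over 7 above the floor, cartilage markers 0.18 over 11 and 0.043 over all 16 measured, melanocyte markers 0.0042 over 5 and erythroid markers 0.32 over 2. The cartilage marker Epyc passed the floor only through the Adam19-/- array, where it was high, so nothing is read from the 0.18.

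The genes whose pair of values was nearest to those of Tbx2, by straight-line distance over the 2 log2 signals, were Tfap2b, Supt7l and Zadh2, at 0.0043 to 0.0054. For Tbx15 they were 1700025H01Rik, Pi16 and 4933439C10Rik, at 0.035 to 0.066. A likeness over 2 arrays is that of a single difference and a level.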

How the data were processed

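RNA of sorted tdTomato-positive heart cells was measured on Affymetrix Mouse Gene 1.0 ST arrays, 1 per genotype, per the labels. The authors deposited 1 log2 value per transcript cluster, 28853 in all, and no source used here gives their background correction, normalisation or summarisation. The log base was inferred from the range of the values. They were used as deposited. Gene names came from the 2016 platform annotation, updated by Entrez identifier with a RefSeq table (GRCm38.p6): 21789 had 1 symbol (21698 matched), 1621 several and 5443 none. The brightest cluster stood for a gene. Genes with at least 1 array above the median of the genes' mean signal were kept. Differences are Adam19-/- minus Adam19+/+, with no test, since each genotype had 1 array. The number of arrays limits the precision. A gene was counted at 1.2-fold, 1.5-fold or 2-fold.

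The members and lists were chosen with earlier results of these data known. Named genes were all 7 members, all other measured T-box genes, the 4 largest absolute differences of each list around the T-box genes and of the mesenchyme, cardiomyocyte, endothelial and epicardial markers, neighbours of the members, and the 3 genes nearest to the 2 members above the floor with the largest difference. The remaining marker lists are summarised by their medians. A list of nearby genes written from memory was replaced by the order of the gene table. Any further gene was named with its values known. Listed genes without a cluster of their own are not analysed here. The calculation was tested on simulated data. Alternatives changed the floor, the scaling and the choice of cluster. The tools were Python 3.11.15, pandas 2.3.3, numpy 2.4.6, matplotlib 3.10.9 and statsmodels 0.14.6.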

Additional observations from a re-analysis of the deposited data

How the results depend on the processing

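No paired analysis was possible because each genotype had 1 array, and no replicate could be left out for the same reason. A value was taken as moved when it shifted by more than 0.055, the median gap between 2 clusters of a gene, and a count when it shifted by over 1.5 times. Under the 8 alternatives, the median of the T-box genes above the floor and the medians of the cardiac partner, BMP, cushion and corepressor lists did not move by that much. The BMP median turned to -0.011 after centring on array medians. The number of T-box genes above the floor that were higher by any amount was 4. It was 3 with quantile normalisation, centring on medians or centring on a smooth curve, and 6 of 7 with no floor. So small a count has little room to pass the limit of 1.5 times. The count of T-box genes 1.2-fold higher was 1 instead of 0 with no floor (Tbx5), and the count 1.2-fold lower was 0 instead of 1 with the floor at the 75th percentile, where Tbx15 is no longer included. The difference of Tbx5 was 0.38 with the offset of 32. The 3 short lists moved with the genes that pass: the chamber list to 0.27 with the higher floor and to 0.20 with no floor, with the mean of clusters and with the dimmest cluster; the limb and lung list to -0.10 with the higher floor and 0 with none; and the other T-box genes to -0.035 with the higher floor and -0.0011 with none. Each member had 1 cluster, so the choice of cluster could not change it. The share of all genes 1.2-fold higher and lower was 2.69% and 1.58% after centring on array medians. With 1 array per genotype the spread between embryos is not known, and Tbx4, Tbx5 and Tbx15 were at low signal.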
